A study of Mus musculus with 24 samples.

Results

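The genes described here break down glucose in the mouse mammary gland and were followed through lactation. They encode the enzymes of glycolysis, lactate dehydrogenase, the carrier that brings pyruvate into mitochondria, the pyruvate dehydrogenase complex with the enzymes that switch it, pyruvate carboxylase, the citric acid cycle, and cytosolic partners of that cycle. They are 40 genes picked by symbol from the 32544 symbols of the deposited table, and each was found. All passed the filter on low values, a level above 1 CPM (counts per 1000000 reads) in at least 3 samples. The 40 comprise 7 genes of upper glycolysis, 5 of lower glycolysis, 2 lactate dehydrogenase subunits, 2 pyruvate carrier subunits, 5 genes of the pyruvate dehydrogenase complex, 4 of its kinases and phosphatases, pyruvate carboxylase, 11 mitochondrial genes of the citric acid cycle and 3 cytosolic genes.

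Polyadenylated RNA was sequenced from whole inguinal mammary glands of 24 mice of 2 genotypes, named NZB and C57 in the labels and both on the BL/6 background. Strains so named are bred to combine that nuclear background with the mitochondrial genome of NZB or of C57 mice. Each genotype was sampled in non-lactating mice and on days 8, 14 and 21 of lactation, with 3 mice in each of the 8 groups. No drug, transgene or Cre is named, and the labels give neither ages nor litter sizes. All lactation days of a genotype are set against the same 3 non-lactating mice, so those comparisons share their controls.

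Glycolysis splits glucose into pyruvate in the cytosol, and pyruvate is then reduced to lactate, carried into mitochondria, or carboxylated to oxaloacetate. The pyruvate dehydrogenase complex turns mitochondrial pyruvate into acetyl-CoA, is switched off by its kinases and switched on by its phosphatases, and feeds citrate synthase. Lactating mammary epithelium is known for drawing glucose into lactose and for exporting mitochondrial citrate to the cytosol as a source of carbon for milk fat.

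Promoter sequences are shown for the members around which the results turn, and for Ldha as a classic target of the hypoxia factor HIF1. RefSeq start sites of build GRCm38.p6 were found for 38 of the 40 members (58 promoters, each from 250 bases before the start to 50 after). Capitals mark matches on either strand to the letters ACGTG (the core of a hypoxia response element), TTCNNNGAA (the element bound by STAT5, the transducer of the prolactin signal) and GGGCGG (a GC box). Aldoc, the member with the largest rise in lactation, had 2 start sites with different matches: the one at chr11:78322823-78323122 (plus strand) held 1 ACGTG and 1 GC box, and the one at chr11:78323948-78324247 (plus strand) held 2 matches to TTCNNNGAA. Pdhb, at chr14:8172943-8173242 (minus strand), fell most by day 21 in NZB among the pyruvate dehydrogenase genes and held 1 ACGTG and 2 GC boxes. Idh1, at chr1:65186430-65186729 (minus strand), was the member with the largest fall in lactation and held 2 GC boxes. Ldha, at chr7:46845554-46845853 (plus strand), held 5 matches to ACGTG, of which 4 lie in the 2 copies of CACGTG, the palindromic E-box that holds ACGTG on each strand, and 3 GC boxes. In the GENCODE annotation of GRCm38 these genes span chr11:78322968-78327781 (Aldoc), chr14:8165996-8173025 (Pdhb), chr1:65158616-65186500 (Idh1) and chr7:46841475-46855627 (Ldha). The sequences run 5′ to 3′ on the gene's strand.
Aldoc first start: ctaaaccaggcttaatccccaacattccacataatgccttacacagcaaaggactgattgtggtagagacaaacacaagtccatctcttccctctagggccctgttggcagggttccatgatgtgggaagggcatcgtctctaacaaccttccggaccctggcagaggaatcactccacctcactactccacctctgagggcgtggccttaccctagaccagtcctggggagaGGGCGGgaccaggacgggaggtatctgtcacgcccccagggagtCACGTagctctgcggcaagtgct
Aldoc second start: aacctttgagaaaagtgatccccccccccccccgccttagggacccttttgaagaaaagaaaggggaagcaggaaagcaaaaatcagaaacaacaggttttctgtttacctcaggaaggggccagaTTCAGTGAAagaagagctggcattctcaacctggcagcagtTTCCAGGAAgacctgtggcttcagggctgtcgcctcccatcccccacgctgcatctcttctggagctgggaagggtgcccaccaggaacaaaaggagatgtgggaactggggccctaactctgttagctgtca
Pdhb: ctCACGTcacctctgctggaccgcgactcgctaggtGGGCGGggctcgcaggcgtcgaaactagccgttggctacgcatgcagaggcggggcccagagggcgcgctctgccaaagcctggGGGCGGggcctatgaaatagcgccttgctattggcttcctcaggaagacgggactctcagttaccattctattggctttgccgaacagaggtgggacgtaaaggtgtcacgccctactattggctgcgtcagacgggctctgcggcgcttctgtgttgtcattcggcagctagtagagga
Idh1: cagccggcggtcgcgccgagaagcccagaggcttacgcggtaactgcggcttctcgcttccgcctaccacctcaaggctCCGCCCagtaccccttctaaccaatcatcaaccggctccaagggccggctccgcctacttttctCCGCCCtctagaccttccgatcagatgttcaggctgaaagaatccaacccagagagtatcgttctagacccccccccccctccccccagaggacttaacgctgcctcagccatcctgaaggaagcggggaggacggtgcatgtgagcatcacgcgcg
Ldha: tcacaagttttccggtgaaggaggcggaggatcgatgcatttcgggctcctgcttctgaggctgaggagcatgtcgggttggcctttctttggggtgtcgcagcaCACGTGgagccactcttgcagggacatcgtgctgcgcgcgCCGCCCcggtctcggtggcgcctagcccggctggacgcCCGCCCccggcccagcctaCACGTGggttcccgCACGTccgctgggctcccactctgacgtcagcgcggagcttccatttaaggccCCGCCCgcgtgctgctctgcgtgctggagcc

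Of all 32851 mouse promoters of that length, 19.6% held ACGTG, 7.15% CACGTG, 8.30% TTCNNNGAA and 35.7% GGGCGG. Among the 58 promoters of members, 37.9% held ACGTG, 12.1% CACGTG, 3.45% TTCNNNGAA and 62.1% GGGCGG. The longer elements bound by the mitochondrial regulators ERR (TCAAGGTCA) and NRF1 were found in 0% and 1.72% of the members' promoters, against 0.423% and 0.971% of all promoters. These matches are a description of letters in a window, and what they do in these glands was not tested. Ldha, which held the most ACGTG of the sequences shown, passed the test in none of the 14 comparisons described here, which says nothing on its matches.

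Milk protein transcripts took 73.7 ± 1.68%, 71.6 ± 3.50% and 24.5 ± 6.19% of all reads on days 8, 14 and 21 in NZB glands and 73.9 ± 2.69%, 70.4 ± 5.89% and 70.3 ± 7.73% in C57 glands (SD, n = 3 each), so levels here are CPM after 15 milk protein genes were removed and the rest rescaled. Depth ran from 7030000 to 24250000 reads per sample. Differences are log2 differences of CPM + 1 with the standard error (SE) of a limma fit over 24 samples, and a gene rose or fell where the p-value, adjusted over 16884 genes, was under 0.05. Some samples stand apart. C57 non-lactating mouse 3 carries an NZB genotype tag under a C57 title and was kept as C57. The first of the 2 read columns of C57 non-lactating mouse 2 held 2170000 reads, against 11890000 in the second. Number 2 of the C57 mice on day 14 and number 2 on day 21 were the closest pair of samples, though further apart than counting noise. Summed B cell markers reached 26.5, 557 and 1228 CPM in the 3 NZB non-lactating mice, against 19.4 to 28.6 CPM in C57 non-lactating mice. Summed skeletal muscle markers were 78.9, 19.6 and 633 CPM in the same NZB mice, against 9.49 to 20.3 CPM in C57 non-lactating mice. The spread within that NZB group was the widest of the 8, with a median gene SD of 0.39 on the log2 scale against 0.22 to 0.32 in the others. On simulated data the fit made too many false calls in a comparison with that group, and a fit with a weight per group fewer. Calls against NZB non-lactating glands are therefore less certain.

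Lactation changed 24 to 26 of the 40 members against non-lactating glands in 5 of the 6 comparisons, and 15 in the NZB day 21 one. In NZB glands 11 rose and 13 fell on day 8, 11 rose and 13 fell on day 14, and 3 rose and 12 fell on day 21. Of all genes, 14.3%, 14.8% and 16.6% rose and 32.3%, 30.6% and 15.2% fell on those days. In C57 glands 12 rose and 12 fell on day 8, 11 rose and 15 fell on day 14, and 12 rose and 14 fell on day 21. Of all genes, 12.5%, 13.3% and 13.1% rose and 30.9%, 24.5% and 25.5% fell. The same fit on TMM scaling, which moved the all-gene median on day 8 to -0.06 in NZB and -0.05 in C57 where the non-milk scale gave -0.31 in both, left 12 higher and 10 lower in NZB and 13 higher and 7 lower in C57 on that day. Of all genes it called 20.8% higher and 23.9% lower in NZB and 19.3% higher and 22.7% lower in C57. On TMM scaling 3 rose and 6 fell on day 21 in NZB, where 2961 of all 16835 genes rose and 2468 fell. In C57 it left 8 and 9 falls on days 14 and 21, where 3581 and 3578 of all genes fell. A weight per group left 1 rise and 9 falls on day 21 in NZB, where 2105 of all 16884 genes rose and 1755 fell. Fitting those 2 groups alone left 2 rises and 5 falls, where 1771 of all 15749 genes rose and 1202 fell. With milk genes kept, as deposited, 1 member rose and 38 fell in NZB and 1 rose and 36 fell in C57 on day 8, against 2.98% of all genes higher and 88.6% lower in NZB and 2.17% and 88.8% in C57. Each direction below is therefore one relative to the non-milk transcripts. Without NZB non-lactating mouse 3, 7 members rose on day 14 and 1 rose and 23 fell on day 21 in NZB. Without the C57 mouse of disputed tag, 13 rose and 12 fell on day 8 in C57. Shares of all genes in the fits without a mouse are not given here. The share of non-milk reads that fell on the 40 genes together was 0.748 ± 0.225%, 0.718 ± 0.0154%, 0.728 ± 0.0424% and 0.575 ± 0.0403% in NZB glands at the 4 successive stages and 0.672 ± 0.168%, 0.724 ± 0.0247%, 0.714 ± 0.086% and 0.698 ± 0.0711% in C57 glands (SD, n = 3 each). In whole glands, fewer cells of a type and less RNA per cell cannot be told apart. The summed level of 9 white adipocyte markers, all of them detected, ran from 487 to 673 CPM on day 8 against 3912 to 10896 CPM in non-lactating NZB glands, and from 405 to 582 CPM on day 8 against 5165 to 9392 CPM in non-lactating C57 glands. Fibroblast markers summed to 403 to 574 CPM on day 8 against 1808 to 6654 CPM in non-lactating NZB glands, and to 457 to 651 against 3486 to 6834 CPM in C57. Macrophage markers ran from 78.6 to 88.1 CPM on day 8 against 276 to 350 CPM in NZB and from 54.5 to 89 against 170 to 563 CPM in C57. Endothelial markers ran from 210 to 294 CPM against 569 to 813 CPM in NZB and from 198 to 251 against 452 to 512 CPM in C57. The 5 luminal secretory markers went the other way, with 12412 to 14445 CPM on day 8 against 262 to 473 CPM in NZB and 10124 to 10983 against 506 to 695 CPM in C57. So did the myoepithelial markers, with 749 to 943 against 91.8 to 265 CPM in NZB and 853 to 917 against 482 to 816 CPM in C57. The part of these cell types in the differences was not tested.

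**Figure D1:**
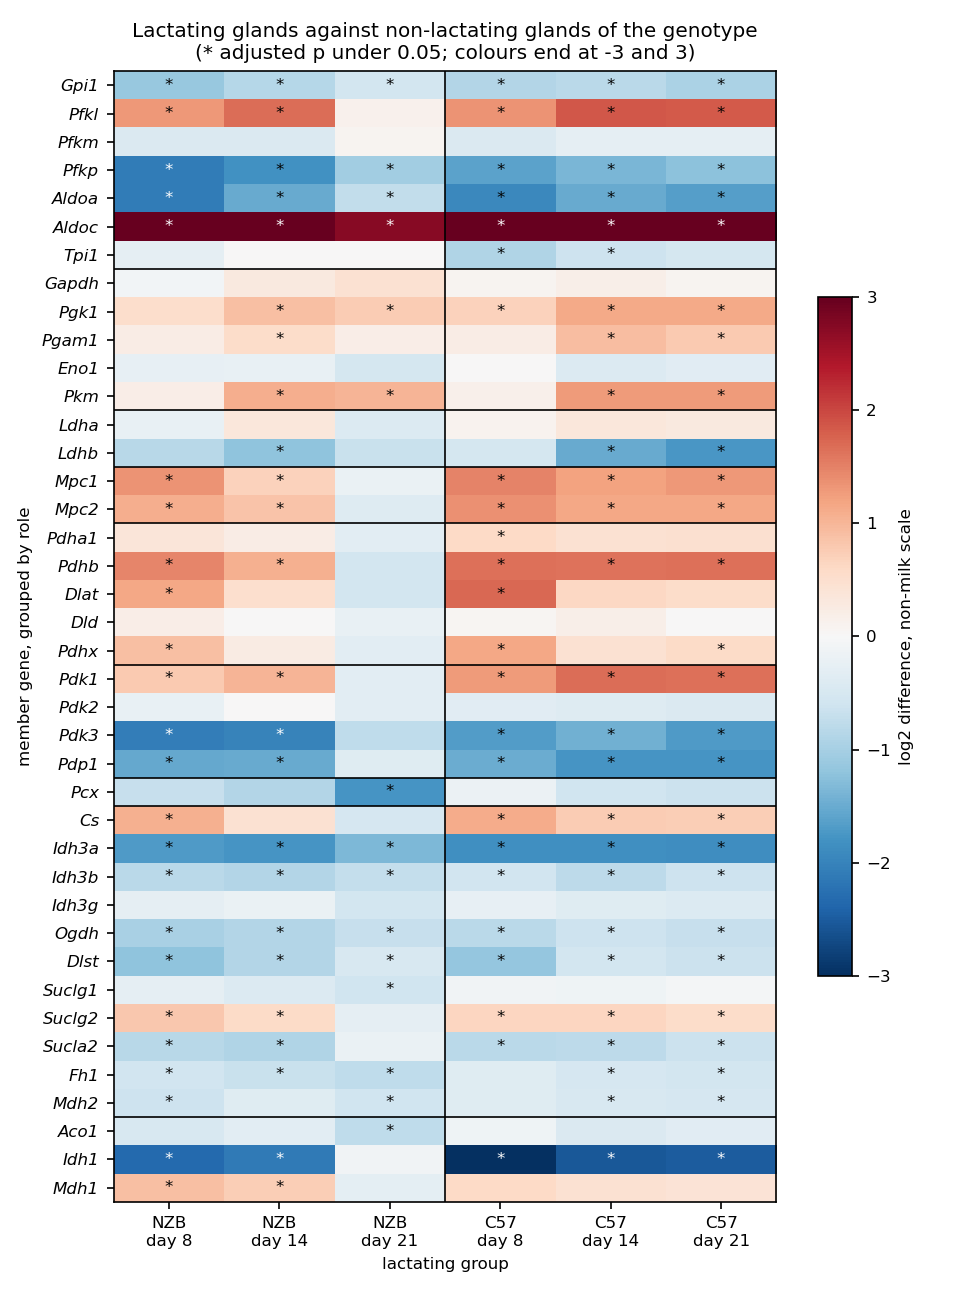
Log2 difference of each of the 40 members (rows, grouped by role) on days 8, 14 and 21 against non-lactating glands of the same genotype, NZB columns left and C57 columns right; red is higher, blue is lower, colours end at -3 and 3, and an asterisk marks an adjusted p under 0.05. Aldoc, Pfkl, Mpc1, Mpc2, Pdhb and Pdk1 are red and Idh1, Idh3a and Aldoa blue on days 8 and 14 in both genotypes on this non-milk scale; with milk genes kept, Aldoc alone of the first 6 is above 0 in all 4 of these comparisons.

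In upper glycolysis the aldolase genes moved in opposite directions. Aldoc, the aldolase known from brain, rose in all 6 lactation comparisons, and Aldoa, the aldolase of muscle and most tissues, fell in all 6; both cleave fructose bisphosphate. NZB glands held Aldoc at 5.84, 6.81 and 2.56 CPM in non-lactating glands, 310, 342 and 308 on day 8, 290, 324 and 244 on day 14 and 39.3, 37.8 and 34.3 on day 21. Levels in C57 glands were 8.08, 27.7 and 10.7 CPM in non-lactating glands, 434, 403 and 360 on day 8, 208, 260 and 223 on day 14 and 152, 267 and 299 on day 21. Every lactating gland lay above every non-lactating gland, and the 3 NZB glands of day 21 lay between the non-lactating and all other lactating glands. Aldoc rose by 5.80 (SE 0.32), 5.63 (SE 0.32) and 2.73 (SE 0.32) on the 3 days in NZB and by 4.78 (SE 0.32), 3.99 (SE 0.32) and 3.99 (SE 0.32) in C57, with adjusted p of 1e-06 or less in NZB and 2e-09 or less in C57. It was the member that still rose with milk genes kept in all 6 comparisons.

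For Aldoa, NZB glands held 826, 630 and 374 CPM in non-lactating glands, 144, 142 and 119 on day 8, 195, 173 and 244 on day 14 and 336, 372 and 341 on day 21. The C57 levels were 662, 375 and 603 CPM in non-lactating glands, 125, 156 and 136 on day 8, 252, 175 and 144 on day 14 and 155, 141 and 213 on day 21. Each gland of days 8 and 14 lay below each non-lactating gland, while the NZB glands of day 21 (336 to 372 CPM) came close to the lowest non-lactating gland at 374 CPM. Aldoa fell by 2.10 (SE 0.26), 1.52 (SE 0.26) and 0.73 (SE 0.26) in NZB, the last with an adjusted p of 0.033 that became 0.073 with a weight per group and 0.11 on TMM scaling. That last call was also lost without any of 5 single mice. In C57 it fell by 1.93 (SE 0.26), 1.51 (SE 0.26) and 1.66 (SE 0.26), with adjusted p of 5.4e-05 or less. Per kilobase of exon, Aldoc averaged 98.0 ± 5.89 CPM and Aldoa 36.4 ± 3.85 CPM on day 8 in NZB glands, against 1.55 ± 0.683 and 164 ± 61.1 CPM in NZB non-lactating glands (SD, n = 3).

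Pfkl, the liver type of phosphofructokinase, the committed step of glycolysis, rose on days 8 and 14 in both genotypes and on day 21 in C57. NZB glands held it at 80.9, 65.1 and 43.1 CPM in non-lactating glands, 149, 160 and 143 on day 8, 209, 212 and 175 on day 14 and 65, 61.2 and 77.6 on day 21. C57 glands had 57.1, 44.8 and 50.6 CPM in non-lactating glands, 139, 136 and 117 on day 8, 197, 195 and 173 on day 14 and 145, 183 and 227 on day 21. All glands of days 8 and 14 lay above all non-lactating glands in both genotypes. The rise was 1.29 (SE 0.19) on day 8 and 1.68 (SE 0.19) on day 14 in NZB, and 1.35 (SE 0.19), 1.87 (SE 0.19) and 1.83 (SE 0.19) over the 3 days in C57 (adjusted p of 9.6e-06 or less), whereas the NZB day 21 difference was 0.14 (SE 0.19) with an adjusted p of 0.61. Pfkl with milk genes kept stood below 0 on day 8 in both genotypes and on day 14 in NZB. Pfkp, the platelet type, fell in all 6 comparisons, by 1.04 to 2.10. So did Gpi1, glucose phosphate isomerase, by 0.55 to 1.14. On TMM scaling the Gpi1 call held on day 8 in NZB and on day 21 in C57 and was lost in the other 4 comparisons (adjusted p of 0.065 to 0.16). The NZB day 21 call was lost in 16 of the fits that left out 1 mouse. Pfkp shares exon bases with Pitrm1, a gene at 64% to 364% of its level, and the counting strand is not given in the sources used here, so its values are uncertain. Tpi1, triose phosphate isomerase, fell in C57 glands on day 8 by 0.91 (SE 0.21) and on day 14 by 0.61 (SE 0.21), calls lost on TMM scaling (adjusted p = 0.1 and 0.23). The second was also lost without any of 3 single mice. Pfkm, the muscle type, passed the test in none of the comparisons.

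In lower glycolysis 0, 3 and 2 of the 5 genes rose on days 8, 14 and 21 in NZB, 1, 3 and 3 rose in C57, and none fell. Of all genes, 14.3%, 14.8% and 16.6% rose and 32.3%, 30.6% and 15.2% fell on those days in NZB. In C57 the shares were 12.5%, 13.3% and 13.1% higher and 30.9%, 24.5% and 25.5% lower. The rise on day 8 in C57 was that of Pgk1, by 0.69 (SE 0.24), lost without any of 3 single mice. Pkm, the pyruvate kinase of most tissues outside liver, stood in NZB glands at 263, 229 and 195 CPM in non-lactating glands, 290, 252 and 238 on day 8, 549, 352 and 590 on day 14 and 359, 456 and 607 on day 21. In C57 glands Pkm was at 253, 169 and 222 CPM in non-lactating glands, 264, 250 and 200 on day 8, 1045, 400 and 322 on day 14 and 786, 373 and 473 on day 21. The lactating C57 glands spread widely, with mouse 1 of day 14 at 1045 CPM and its 2 companions at 400 and 322 CPM. Pkm rose by 1.09 (SE 0.33) on day 14 (adjusted p = 0.01) and 1.02 (SE 0.33) on day 21 in NZB (adjusted p = 0.021, 0.071 with a weight per group, and lost without NZB non-lactating mouse 3 or NZB day 21 mouse 3), and by 1.27 (SE 0.33) and 1.28 (SE 0.33) in C57 (adjusted p = 0.0038 and 0.0034). These Pkm differences with milk genes kept were below 0, except the NZB day 21 one at 0.64.

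Pgk1, phosphoglycerate kinase, which makes ATP in glycolysis, reached 51.4, 47.8 and 35.4 CPM in non-lactating glands, 60.2, 62.1 and 69.9 on day 8, 109, 63.6 and 83.9 on day 14 and 58.9, 76.4 and 97.2 on day 21 in NZB glands. Its C57 levels were 45.3, 33 and 40.9 CPM in non-lactating glands, 52.8, 70.7 and 70.4 on day 8, 120, 88.8 and 62.4 on day 14 and 91.7, 102 and 73.6 on day 21. Lactating glands lay above the non-lactating ones of their genotype. Pgk1 rose by 0.90 (SE 0.24) and 0.76 (SE 0.24) on days 14 and 21 in NZB (adjusted p = 0.004 and 0.017) and by 1.13 (SE 0.24) and 1.14 (SE 0.24) in C57 (adjusted p = 0.00058 and 0.0005). The NZB day 21 call was lost with a weight per group (adjusted p = 0.065) and without mouse 3 of either NZB group. A near-identical copy, Pgk1-rs7, had up to 48.2% of the level of Pgk1 in a sample, so reads may be split between them. The Pgk1 differences with milk genes kept were below 0 except the NZB day 21 one at 0.38. Pgam1, phosphoglycerate mutase, rose by 0.54 (SE 0.19) on day 14 in NZB and by 0.93 (SE 0.19) and 0.78 (SE 0.19) on days 14 and 21 in C57, and all 3 of these were below 0 with milk genes kept. The NZB call was lost with a weight per group (adjusted p = 0.066) and without NZB non-lactating mouse 3 or NZB day 14 mouse 1. Gapdh, often used as a constant control gene, and Eno1, the common enolase, passed the test in none of the 14 comparisons; Gapdh ran from 602 to 1485 CPM over all 24 glands, and its 75 near-identical copies in the table together had 1.45% to 4.06% of its level.

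Of the lactate dehydrogenase subunits, Ldha, the form common in muscle, ran from 124 to 334 CPM over the 24 glands and passed in no comparison. Ldhb, the heart form, was scarce in NZB glands at 19.5, 17 and 7.98 CPM in non-lactating glands, 3.93, 8.29 and 11.7 on day 8, 3.9, 6.73 and 6.24 on day 14 and 8.72, 9.86 and 6.83 on day 21. C57 glands had 13.9, 10.2 and 13.9 CPM in non-lactating glands, 12.4, 8.29 and 5.66 on day 8, 5.73, 3.12 and 2.86 on day 14 and 1.77, 3.58 and 4.3 on day 21. The 6 C57 glands of days 14 and 21 all lay below 6 CPM, and every non-lactating gland lay above 7 CPM. Ldhb fell by 1.20 (SE 0.37) on day 14 in NZB (adjusted p = 0.012) and by 1.52 (SE 0.37) and 1.74 (SE 0.37) on days 14 and 21 in C57 (adjusted p = 0.0024 and 0.0007). The NZB call was lost on TMM scaling (adjusted p = 0.068) and without NZB non-lactating mouse 1 or 2 or NZB day 14 mouse 1.

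Both subunits of the mitochondrial pyruvate carrier rose on days 8 and 14 in NZB and on all 3 days in C57 relative to non-milk transcripts, and both were below 0 in these comparisons with milk genes kept. Mpc1 stood in NZB glands at 125, 106 and 59.1 CPM in non-lactating glands, 252, 244 and 216 on day 8, 146, 170 and 132 on day 14 and 68.1, 72.6 and 103 on day 21. In C57 glands it stood at 79.7, 57.4 and 74.6 CPM in non-lactating glands, 173, 206 and 214 on day 8, 157, 157 and 177 on day 14 and 168, 193 and 159 on day 21. The NZB glands of day 21 overlapped the NZB non-lactating ones, and the C57 glands of day 21 did not overlap theirs. Mpc1 rose by 1.35 (SE 0.21) and 0.68 (SE 0.21) in NZB on days 8 and 14 (adjusted p = 2.2e-05 and 0.013) and by 1.48 (SE 0.21), 1.21 (SE 0.21) and 1.29 (SE 0.21) in C57 (adjusted p of 9e-05 or less). The NZB day 14 call was lost without NZB non-lactating mouse 3 or without NZB day 14 mouse 2.

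Mpc2, the partner subunit, held 119, 77.2 and 59.3 CPM in non-lactating glands, 188, 197 and 143 on day 8, 140, 168 and 140 on day 14 and 55.6, 65.6 and 66 on day 21 in NZB glands. C57 glands showed 72.7, 56 and 71.3 CPM in non-lactating glands, 162, 192 and 165 on day 8, 111, 185 and 159 on day 14 and 105, 163 and 193 on day 21. Its rise was 1.08 (SE 0.24) and 0.86 (SE 0.24) on days 8 and 14 in NZB (adjusted p = 0.00072 and 0.0056) and 1.37 (SE 0.24), 1.15 (SE 0.24) and 1.16 (SE 0.24) in C57 (adjusted p of 0.00048 or less). On day 21 the NZB differences from non-lactating glands were -0.20 (SE 0.21) for Mpc1 and -0.39 (SE 0.24) for Mpc2, with adjusted p of 0.51 and 0.23.

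In the pyruvate dehydrogenase complex, 3 of 5 genes rose on day 8 in NZB and 4 of 5 in C57, and none fell in either. All 5 were below 0 on that day with milk genes kept. Of all genes, 14.3% rose and 32.3% fell on day 8 in NZB, and 12.5% rose and 30.9% fell in C57. Pdhb, the beta subunit of the decarboxylase, had 178, 147 and 84.4 CPM in non-lactating glands, 424, 348 and 324 on day 8, 350, 279 and 209 on day 14 and 81.5, 75.6 and 110 on day 21 in NZB glands. C57 glands carried 108, 68 and 108 CPM in non-lactating glands, 302, 287 and 293 on day 8, 280, 350 and 246 on day 14 and 234, 328 and 333 on day 21. Each gland of days 8 and 14 exceeded each non-lactating one of either genotype, as did the C57 but not the NZB glands of day 21. Pdhb rose by 1.47 (SE 0.25) and 1.06 (SE 0.25) in NZB (adjusted p = 5e-05 and 0.0016) and by 1.66 (SE 0.25), 1.63 (SE 0.25) and 1.66 (SE 0.25) in C57 (adjusted p of 1.6e-05 or less).

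Dlat, the acetyltransferase core, peaked on day 8. NZB glands held 149, 124 and 68.5 CPM in non-lactating glands, 211, 266 and 257 on day 8, 167, 186 and 118 on day 14 and 78.4, 69.2 and 71.3 on day 21. C57 glands had Dlat at 97.7, 67.1 and 100 CPM in non-lactating glands, 277, 293 and 300 on day 8, 118, 178 and 112 on day 14 and 97.2, 154 and 139 on day 21. All 6 glands of day 8 lay above all non-lactating glands, while some glands of days 14 and 21 overlapped them. Dlat rose on day 8 by 1.16 (SE 0.25) in NZB (adjusted p = 0.00058) and 1.73 (SE 0.25) in C57 (adjusted p = 6.2e-06). Pdhx, the protein that binds the third enzyme to that core, rose on day 8 by 0.91 (SE 0.21) in NZB and 1.15 (SE 0.21) in C57, and Pdha1, the alpha subunit, rose by 0.60 (SE 0.21) on day 8 in C57, a call lost without any of 4 single mice. Dld, the dehydrogenase that other complexes share, passed in none of the 14 comparisons.

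The enzymes that switch the complex changed in opposite directions. Pdk1, a kinase that inactivates the complex and is a known HIF1 target, rose on days 8 and 14 in NZB and on all 3 days in C57, while Pdk3, another kinase, and Pdp1, a phosphatase that reactivates it, fell at those times. Pdk1 stood at 95.2, 94.8 and 129 CPM in non-lactating glands, 186, 161 and 202 on day 8, 235, 200 and 204 on day 14 and 78.6, 81.9 and 93.7 on day 21 in NZB glands. The C57 values were 64.1, 53.5 and 73.1 CPM in non-lactating glands, 163, 140 and 158 on day 8, 200, 214 and 195 on day 14 and 192, 204 and 207 on day 21. The rise of Pdk1 was 0.79 (SE 0.15) and 1.01 (SE 0.15) in NZB (adjusted p = 0.00018 and 1.1e-05) and 1.27 (SE 0.15), 1.67 (SE 0.15) and 1.66 (SE 0.15) in C57 (adjusted p of 4.5e-07 or less); with milk genes kept these 5 values were below 0. Among the non-lactating glands, Pdk1 was higher in NZB by 0.73 (SE 0.15) (adjusted p = 0.0057), a call lost when those 2 groups were fitted alone (adjusted p = 0.32).

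Pdk3 was scarce, at 5.92, 8.48 and 15.6 CPM in non-lactating glands, 2.19, 1.38 and 0.903 on day 8, 0.748, 1.81 and 2.4 on day 14 and 5.92, 4.89 and 4.38 on day 21 in NZB glands. C57 glands held Pdk3 at 6.39, 8.62 and 7.65 CPM in non-lactating glands, 1.18, 1.52 and 2.5 on day 8, 2.94, 1.46 and 2.27 on day 14 and 3.4, 0.995 and 1.08 on day 21. Every gland of days 8 and 14 lay below every non-lactating gland. Pdk3 fell by 2.08 (SE 0.35) and 2.01 (SE 0.35) on days 8 and 14 in NZB (adjusted p = 5.2e-05 and 8.6e-05) and by 1.67 (SE 0.35), 1.43 (SE 0.35) and 1.69 (SE 0.35) in C57 (adjusted p = 0.00054, 0.0026 and 0.00054). Levels this low make the log2 difference of CPM + 1 smaller than the ratio of the CPM themselves.

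Pdp1 had 16.9, 12.5 and 14.6 CPM in non-lactating glands, 6.03, 3.07 and 4.52 on day 8, 2.33, 3.53 and 9.84 on day 14 and 13.9, 10.4 and 9.53 on day 21 in NZB glands. In C57 glands Pdp1 had 19.6, 11.3 and 17.2 CPM in non-lactating glands, 4.87, 3.64 and 6.86 on day 8, 3.69, 4.97 and 3.11 on day 14 and 3.92, 5.17 and 2.96 on day 21. Lactating C57 glands all lay below the non-lactating ones. Pdp1 fell by 1.53 (SE 0.35) and 1.51 (SE 0.35) in NZB (adjusted p = 0.0011 and 0.0013) and by 1.48 (SE 0.35), 1.78 (SE 0.35) and 1.76 (SE 0.35) in C57 (adjusted p of 0.0014 or less). Pdk2 passed in none of the comparisons.

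Pcx, pyruvate carboxylase, which makes oxaloacetate and is abundant in fat tissue, varied most among non-lactating glands. NZB glands held 1704, 1180 and 515 CPM in non-lactating glands, 619, 668 and 610 on day 8, 519, 573 and 551 on day 14 and 488, 243 and 224 on day 21. C57 glands had Pcx at 1029, 375 and 1132 CPM in non-lactating glands, 654, 690 and 666 on day 8, 457, 523 and 531 on day 14 and 335, 514 and 666 on day 21. The lowest non-lactating values were 515 CPM in NZB and 375 CPM in C57. In each genotype that mouse had the lowest summed white adipocyte markers of its non-lactating group, 3912 CPM in NZB and 5165 CPM in C57. It also had the group's lowest share of non-milk reads on all members together, 0.507% in NZB and 0.477% in C57. The part of fat in the spread of Pcx was not tested. Pcx passed in no C57 comparison and fell by 1.76 (SE 0.38) on day 21 in NZB against non-lactating glands (adjusted p = 0.0012).

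**Figure D2:**
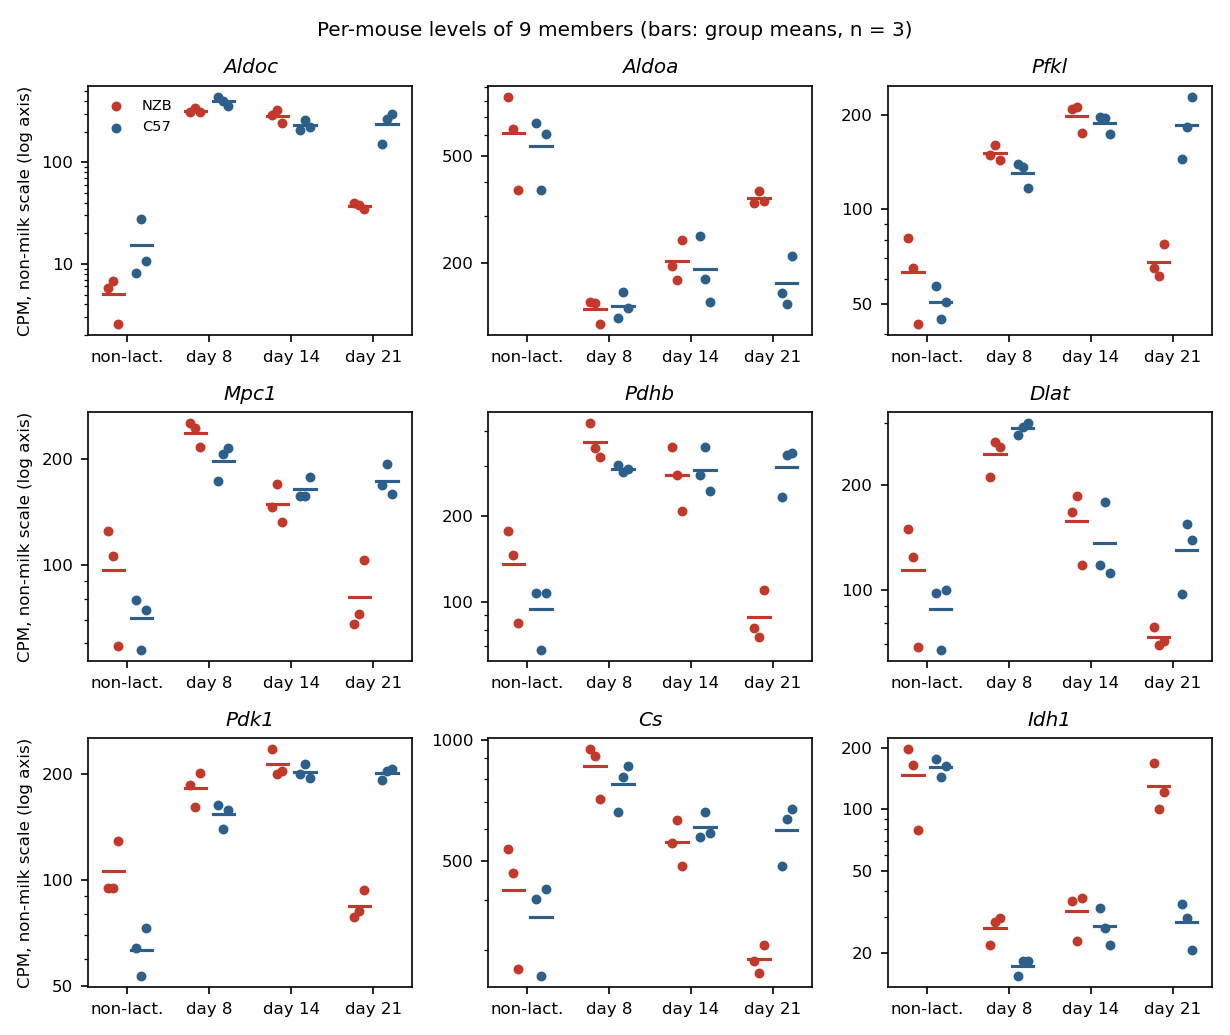
Level of 9 members in each mouse (dots, CPM on the non-milk scale, log axis) by stage, NZB in red left of C57 in blue, with bars at the group means (n = 3). On day 21 the 3 NZB dots lie below the 3 C57 dots for Aldoc, Pfkl, Mpc1, Pdhb, Dlat, Pdk1 and Cs and above them for Aldoa and Idh1.

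The citric acid cycle did not move as a unit. Of its 11 mitochondrial genes, 2 rose and 7 fell on day 8 in NZB, where 14.3% of all genes rose and 32.3% fell. In C57, where 12.5% of all genes rose and 30.9% fell, 2 of the 11 rose and 5 fell. Of the falls, 4 in NZB (Dlst, Idh3a, Idh3b and Ogdh) and 2 in C57 (Dlst and Idh3a) were also made on TMM scaling and with a weight per group. The 2 that rose were Cs, citrate synthase, and Suclg2, the GTP-forming succinyl-CoA ligase subunit, both below 0 with milk genes kept. Cs stood in NZB glands at 537, 467 and 269 CPM in non-lactating glands, 948, 915 and 715 on day 8, 556, 633 and 486 on day 14 and 283, 263 and 310 on day 21. C57 glands had Cs at 403, 259 and 426 CPM in non-lactating glands, 663, 810 and 862 on day 8, 573, 663 and 587 on day 14 and 485, 637 and 672 on day 21. Day 8 glands all lay above the non-lactating ones. Cs rose on day 8 by 1.07 (SE 0.23) in NZB (adjusted p = 0.00057) and by 1.12 (SE 0.23), 0.77 (SE 0.23) and 0.74 (SE 0.23) over the 3 days in C57 (adjusted p = 0.00033, 0.0095 and 0.013). Without C57 non-lactating mouse 2 the last 2 of these calls were lost, and the day 21 call was also lost without C57 day 21 mouse 3.

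Suclg2 was at 48.5, 47.9 and 35.6 CPM in non-lactating glands, 82.2, 66 and 83.8 on day 8, 69, 66.2 and 60 on day 14 and 38, 35.1 and 35.3 on day 21 in NZB glands. Its level in C57 glands was 44.4, 36.9 and 46.4 CPM in non-lactating glands, 67.9, 65.6 and 67.4 on day 8, 55, 77.9 and 71 on day 14 and 54.6, 77 and 56.8 on day 21. It rose by 0.81 (SE 0.17) and 0.57 (SE 0.17) on days 8 and 14 in NZB (adjusted p = 0.00049 and 0.0098) and by 0.65 (SE 0.17), 0.65 (SE 0.17) and 0.54 (SE 0.17) in C57 (adjusted p = 0.0034, 0.0037 and 0.014). The NZB day 14 call was lost without NZB non-lactating mouse 3, and the C57 day 21 call without mouse 2 of either C57 group. Its ATP-forming counterpart Sucla2 fell in 5 of the 6 lactation comparisons, by 0.65 to 0.91. None of these calls was made on TMM scaling (adjusted p of 0.062 to 0.18). The C57 calls of days 14 and 21 were also lost without any of 2 and of 4 single mice.

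Idh3a, the catalytic subunit of mitochondrial isocitrate dehydrogenase, fell in all 6. NZB glands held Idh3a at 100, 93.4 and 49.8 CPM in non-lactating glands, 20.8, 21.9 and 27 on day 8, 27.1, 17.7 and 22.5 on day 14 and 37.7, 26 and 26.9 on day 21. C57 glands held it at 73.2, 64.7 and 73.7 CPM in non-lactating glands, 21.9, 15.1 and 20.2 on day 8, 22, 15.7 and 19.6 on day 14 and 20.6, 17.5 and 17.6 on day 21. No lactating gland reached the lowest non-lactating one. Idh3a fell by 1.70 (SE 0.23), 1.77 (SE 0.23) and 1.35 (SE 0.23) in NZB and by 1.85 (SE 0.23), 1.84 (SE 0.23) and 1.87 (SE 0.23) in C57 (adjusted p of 0.00013 or less). Of its partner subunits, Idh3b fell in all 6, by 0.58 to 0.88. Its calls on days 8 and 21 in C57 were lost on TMM scaling (adjusted p = 0.31 and 0.084). Idh3g passed in none of the 14 comparisons.

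Dlst and Ogdh, 2 enzymes of the oxoglutarate dehydrogenase complex, also fell in all 6. Dlst stood at 144, 141 and 117 CPM in non-lactating glands, 59.9, 56.1 and 57.5 on day 8, 74.9, 69.1 and 72.9 on day 14 and 85.5, 97.9 and 108 on day 21 in NZB glands. C57 glands showed Dlst at 115, 98 and 113 CPM in non-lactating glands, 50.9, 44.5 and 49 on day 8, 77.1, 81.5 and 62.8 on day 14 and 71.8, 63.9 and 70.8 on day 21. It fell by 1.20 (SE 0.14), 0.88 (SE 0.14) and 0.47 (SE 0.14) in NZB (adjusted p of 0.013 or less) and by 1.16 (SE 0.14), 0.56 (SE 0.14) and 0.65 (SE 0.14) in C57 (adjusted p of 0.0026 or less), so the lowest levels were on day 8 in both genotypes. On TMM scaling Dlst lost its calls on day 21 in NZB and day 14 in C57 (adjusted p = 0.076 and 0.088). The NZB one was also lost without NZB non-lactating mouse 2 or NZB day 21 mouse 1. Ogdh fell by 0.62 to 0.97. Its 3 C57 calls were lost on TMM scaling (adjusted p of 0.091 to 0.13). Suclg1, Fh1 (fumarase) and Mdh2, the mitochondrial malate dehydrogenase, fell in 1, 5 and 4 of the 6 comparisons on the non-milk scale. On TMM scaling the call of Fh1 on day 21 in NZB was made and the others were lost, and those of Mdh2 on days 14 and 21 in C57 were each lost without any of 4 single mice.

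The largest fall of any member was that of Idh1, the cytosolic isocitrate dehydrogenase, which makes NADPH from isocitrate. It stood in NZB glands at 196, 165 and 79.6 CPM in non-lactating glands, 21.8, 28.2 and 29.6 on day 8, 35.8, 22.7 and 36.9 on day 14 and 169, 100 and 122 on day 21. The C57 values of Idh1 were 175, 144 and 163 CPM in non-lactating glands, 15.4, 18.2 and 18.3 on day 8, 32.9, 26.5 and 21.8 on day 14 and 34.7, 29.6 and 20.7 on day 21. Glands of days 8 and 14 all lay at 36.9 CPM or less and non-lactating glands at 79.6 CPM or more, with the NZB glands of day 21 within the non-lactating range and the C57 glands of day 21 within that of days 8 and 14. Idh1 fell by 2.34 (SE 0.28) and 2.11 (SE 0.28) in NZB and by 3.14 (SE 0.28), 2.54 (SE 0.28) and 2.49 (SE 0.28) in C57 (adjusted p of 2.2e-06 or less), and the NZB day 21 difference was -0.10 (SE 0.28) with an adjusted p of 0.82.

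Mdh1, the cytosolic malate dehydrogenase of the malate-aspartate shuttle, went the other way in NZB. It held 201, 177 and 96.5 CPM in non-lactating glands, 238, 276 and 353 on day 8, 332, 241 and 199 on day 14 and 135, 115 and 121 on day 21 there. C57 glands had Mdh1 at 190, 133 and 220 CPM in non-lactating glands, 268, 256 and 281 on day 8, 215, 301 and 221 on day 14 and 198, 269 and 241 on day 21. Mdh1 rose by 0.91 (SE 0.24) and 0.73 (SE 0.24) on days 8 and 14 in NZB (adjusted p = 0.0039 and 0.018) and was below 0 in both with milk genes kept, with the day 14 call lost without NZB non-lactating mouse 3 or NZB day 14 mouse 1. In C57 the differences were 0.59 (SE 0.24) and 0.45 (SE 0.24) with adjusted p of 0.054 and 0.16. Aco1, the cytosolic aconitase and iron regulator, fell by 0.77 (SE 0.25) on day 21 in NZB (adjusted p = 0.022), a call lost on TMM scaling (adjusted p = 0.095) and without any of 3 single mice.

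On days 8 and 14 no member passed the test between the genotypes. Limma called 0 of 40 on each day, where 0.0355% of all genes were called on either, and at an unadjusted p under 0.05 it gave 1 member higher on day 8 and 1 lower on day 14; a voom fit on the recovered reads and the fit with a weight per group also called 0. Non-lactating NZB and C57 glands differed in 1 higher and 1 lower member, against 1.67% and 3.39% of all genes. These were Pdk1, given above, and Aldoc, which was lower in NZB by a log2 difference of -1.33 (SE 0.32) (adjusted p = 0.016, and 0.057 with a weight per group). The Aldoc call rested on C57 non-lactating mouse 2, at 27.7 CPM, and NZB non-lactating mouse 3, at 2.56 CPM: without either it was lost.

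On day 21 more members passed the test between NZB and C57 glands than at any of the other 3 stages. Of the 40 members, 8 were higher and 11 lower in NZB, against 19.3% of all genes higher and 5.50% lower. The members' median difference was -0.12, and that of all 16884 genes 0.30. On TMM scaling the all-gene median was 0.08, and 2 members were higher and 13 lower (10.1% and 8.99% of all genes). With milk genes kept, 31 were higher and 1, Aldoc, was lower (86.2% of all genes in either direction). Voom on the recovered reads called 1 higher and 12 lower (7.49% and 8.79% of all genes). Idh1 and Pdk3 were higher, and Aldoc, Cs, Dlat, Mdh1, Mpc1, Mpc2, Pdhb, Pdk1, Pfkl, Pgam1 and Suclg2 lower, on the non-milk scale, on TMM scaling and with a weight per group. Leaving out C57 day 21 mouse 2, or NZB day 21 mouse 1 or 2, left 4, 4 and 5 members higher and 10, 11 and 11 lower. Shares of all genes in those fits are not given here.

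Of the genes of pyruvate entry on day 21, both carrier subunits and 2 of the 5 genes of the dehydrogenase complex were lower in NZB and none was higher, on the non-milk scale. On that scale 5.50% of all genes were lower and 19.3% higher. Pdhb, at 81.5, 75.6 and 110 CPM in NZB against 234, 328 and 333 CPM in C57, fell by 1.73 (SE 0.25) (adjusted p = 3.8e-05). Mpc1, with its NZB glands at 68.1, 72.6 and 103 CPM against 168, 193 and 159 CPM in C57, was lower by a difference of -1.10 (SE 0.21) (adjusted p = 0.00077), and Mpc2 by one of -1.24 (SE 0.24) (adjusted p = 0.00065). None of these glands overlapped between genotypes. Pdhb with milk genes kept stayed below 0 at -0.37, and Mpc1 and Mpc2 were above 0. Dlat differed by -0.80 (SE 0.25) (adjusted p = 0.021), a call lost without mouse 2 or 3 of either genotype. Pdk1 was lower in NZB at -1.24 (SE 0.15) (adjusted p = 4.9e-06), and like Dlat it was above 0 with milk genes kept, whereas Pdk3 and Pdp1 were higher at 1.20 (SE 0.35) and 1.30 (SE 0.35) (adjusted p = 0.017 and 0.0092); on TMM scaling Pdp1 had 1.07 and an adjusted p of 0.053, and the Pdk3 call was lost without any of 3 single mice.

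In glycolysis 3 genes were lower and 2, Aldoa and Pfkp, higher in NZB on day 21, against 5.50% and 19.3% of all genes. Aldoc was lower in NZB with a difference of -2.60 (SE 0.32) (adjusted p = 5.7e-06), Pfkl with one of -1.41 (SE 0.19) (adjusted p = 1.9e-05) and Pgam1 with one of -0.68 (SE 0.19) (adjusted p = 0.011); with milk genes kept, Aldoc and Pfkl were still below 0, at -1.23 and -0.06, and Pgam1 was above 0. Pfkp had 0.75 (SE 0.26) (adjusted p = 0.041), with the doubt over its reads given above, and lost its call on TMM scaling (adjusted p = 0.13) and without any of 4 single mice. Aldoa was higher at 1.06 (SE 0.26) (adjusted p = 0.0043), with 0.79 and an adjusted p of 0.098 on TMM scaling. Skeletal muscle markers, 10 of 10 on the scale, summed to 314, 1029 and 8.47 CPM in the 3 NZB glands of day 21 and to 9.61, 4.08 and 7.35 CPM in C57. Aldoa was 336, 372 and 341 CPM in the same NZB mice and 155, 141 and 213 CPM in those C57 mice. The part of muscle in this difference was not tested. Ldhb was higher at 1.21 (SE 0.37) (adjusted p = 0.021, 0.11 on TMM scaling, and lost without any of 3 single mice), and Ldha had -0.67 (SE 0.27) with an adjusted p of 0.067.

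Within the citric acid cycle and its cytosolic partners the day 21 differences again went both ways, and with milk genes kept Cs, Suclg2 and Mdh1 were above 0. Cs was lower in NZB, at 283, 263 and 310 CPM against 485, 637 and 672 CPM, a difference of -1.05 (SE 0.23) (adjusted p = 0.0018), and Suclg2 was lower at -0.76 (SE 0.17) (adjusted p = 0.0023). Mdh1 was lower at -0.92 (SE 0.24) (adjusted p = 0.0086). Idh1 was higher, at 169, 100 and 122 CPM in NZB against 34.7, 29.6 and 20.7 CPM in C57, a difference of 2.16 (SE 0.28) (adjusted p = 9.3e-06). Idh3a and Dlst were higher at 0.66 (SE 0.23) and 0.49 (SE 0.14) (adjusted p = 0.043 and 0.013), and both calls were lost on TMM scaling with adjusted p of 0.35 and 0.45. Any of 9 single mice could undo that of Idh3a, and C57 mouse 2 or NZB mouse 3 of day 21 that of Dlst. Summed white adipocyte markers were 3396, 1092 and 1218 CPM in the NZB mice and 714, 412 and 598 CPM in the C57 mice of day 21, and 5 luminal secretory markers summed to 5017 to 5370 CPM in NZB and 13330 to 17308 CPM in C57; their part in these differences was not tested. The 6 markers listed for brown adipocytes, 4 of them past the filter on low values, summed to 62 to 101 CPM in NZB on day 21. Elovl3 was at 0 there, and the C57 sum was 563 to 1302 CPM. In C57 the sum was 19.2 to 36.7 CPM in non-lactating glands and 657 to 881 CPM on day 8, with Ucp1 at 0 on day 8. In NZB the sum was 39.6 to 75.3 CPM in non-lactating glands, 751 to 859 CPM on day 8 and 788 to 1287 CPM on day 14. It was thus high in lactating glands of both genotypes except the NZB glands of day 21. Whether the sum reflects brown fat was not tested. Fibroblast and macrophage markers were also higher in NZB, at 792 to 1863 against 425 to 595 CPM and at 250 to 505 against 99.5 to 130 CPM. Myoepithelial markers were higher too, at 979 to 1521 against 620 to 871 CPM, and red blood cell markers lower, at 147 to 172 against 362 to 721 CPM. The part of these cell types in the differences was not tested either.

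**Figure D3:**
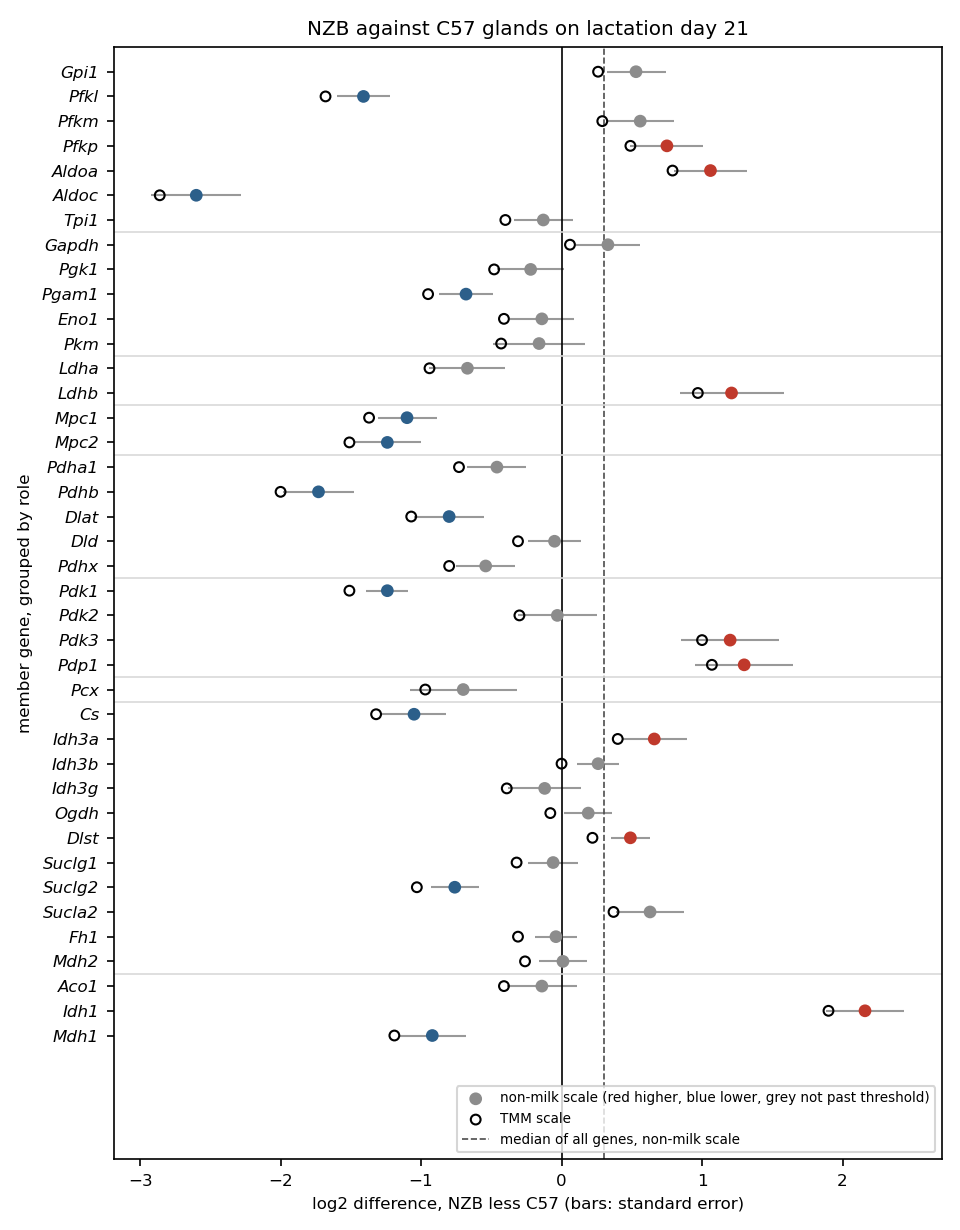
Log2 difference, NZB less C57, of each of the 40 members on lactation day 21 (rows, grouped by role): filled dots with bars of 1 SE on the non-milk scale, red where higher, blue where lower and grey where the adjusted p was not under 0.05; open circles on TMM scaling; dashed line at the all-gene median of 0.30. Aldoc lies furthest left at -2.60 and Idh1 furthest right at 2.16, while with milk genes kept 31 members were higher.

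The day 21 glands also differed from day 8 glands in NZB. Between those days 7 members rose and 13 fell in NZB, where 22.9% of all genes rose and 7.49% fell, and 0 rose and 1 fell in C57, where 1.30% of all genes rose and 0.811% fell (10 members at an unadjusted p under 0.05). The C57 member was Dlat, which fell by 1.17 (SE 0.25) (adjusted p = 0.011), a call lost without C57 day 8 mouse 2 or 3 or C57 day 21 mouse 1 and not made by voom. In NZB Aldoc fell by 3.07 (SE 0.32), Pdhb by 2.04 (SE 0.25), Dlat by 1.73 (SE 0.25), Cs by 1.58 (SE 0.23) and Mpc1 by 1.55 (SE 0.21) (adjusted p of 2.2e-05 or less), and these 5 were below 0 with milk genes kept as well. Idh1 rose by 2.23 (SE 0.28) (adjusted p = 3.6e-06) and Aldoa by 1.37 (SE 0.26) (adjusted p = 0.00034). The other members that fell (Mdh1, Mpc2, Pcx, Pdha1, Pdhx, Pdk1, Pfkl and Suclg2) were above 0 with milk genes kept. Pcx fell by 1.08 (SE 0.38) (adjusted p = 0.036), a call that any of 5 single mice could undo, and that of Pdha1 any of 3.

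The difference between genotypes in that change was itself tested. From day 8 to day 21, the change in NZB was lower than in C57 for 8 members and higher for 1, against 2.93% and 4.37% of all genes. Aldoc had a difference of changes of -2.28 (SE 0.45) (adjusted p = 0.0029), Pdhb one of -2.04 (SE 0.35) (adjusted p = 0.00094), Pfkl one of -1.62 (SE 0.27) (adjusted p = 0.00069) and Pdk1 one of -1.49 (SE 0.21) (adjusted p = 0.00015). Mpc1, Mpc2, Cs and Suclg2 had -1.37, -1.26, -1.19 and -0.96 (adjusted p = 0.0072, 0.023, 0.026 and 0.016), and Idh1 had 1.58 (adjusted p = 0.015). On TMM scaling 0 were higher and 6 lower (2.64% and 3.58% of all genes), with Idh1 at an adjusted p of 0.066, Mpc2 at 0.067 and Cs at 0.075. Any of 7 single mice could undo the Mpc2 call, any of 6 the Cs call, and C57 day 21 mouse 2 the Suclg2 call. Cs, Mpc2 and Suclg2 were above 0 with milk genes kept. The change from non-lactating glands to day 8 differed between genotypes in 0 members by limma, voom and the fit with a weight per group (3 at an unadjusted p under 0.05; 0.723% of all genes called).

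Ratios of isozyme genes within a gland need no scaling and are given as descriptions. Aldoa to Aldoc averaged 127 ± 29.8, 0.423 ± 0.0404, 0.736 ± 0.241 and 9.44 ± 0.774 in NZB glands at the non-lactating stage and days 8, 14 and 21, and 50.6 ± 34.6, 0.351 ± 0.0542, 0.844 ± 0.32 and 0.753 ± 0.246 in C57 glands (SD, n = 3). Sucla2 to Suclg2 was 0.841 ± 0.0872 in NZB and 0.312 ± 0.042 in C57 on day 21, where non-lactating glands averaged 0.805 and 0.727. Pfkl to Pfkm was 2.53 ± 1.38 in NZB and 9.29 ± 2.33 in C57 on day 21, and 7.33 and 7.38 on day 8. In the 3 NZB glands of day 21 it was 2.41, 1.21 and 3.97, with Pfkm at 27, 50.6 and 19.6 CPM and the muscle sums of 314, 1029 and 8.47 CPM given above. The part of muscle in it was not tested. Ldha to Ldhb was 18.6 ± 5.01 in NZB and 89.2 ± 52.2 in C57 on day 21. In each of these 4 ratios no NZB value overlapped a C57 value of that day.

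**Figure D4:**
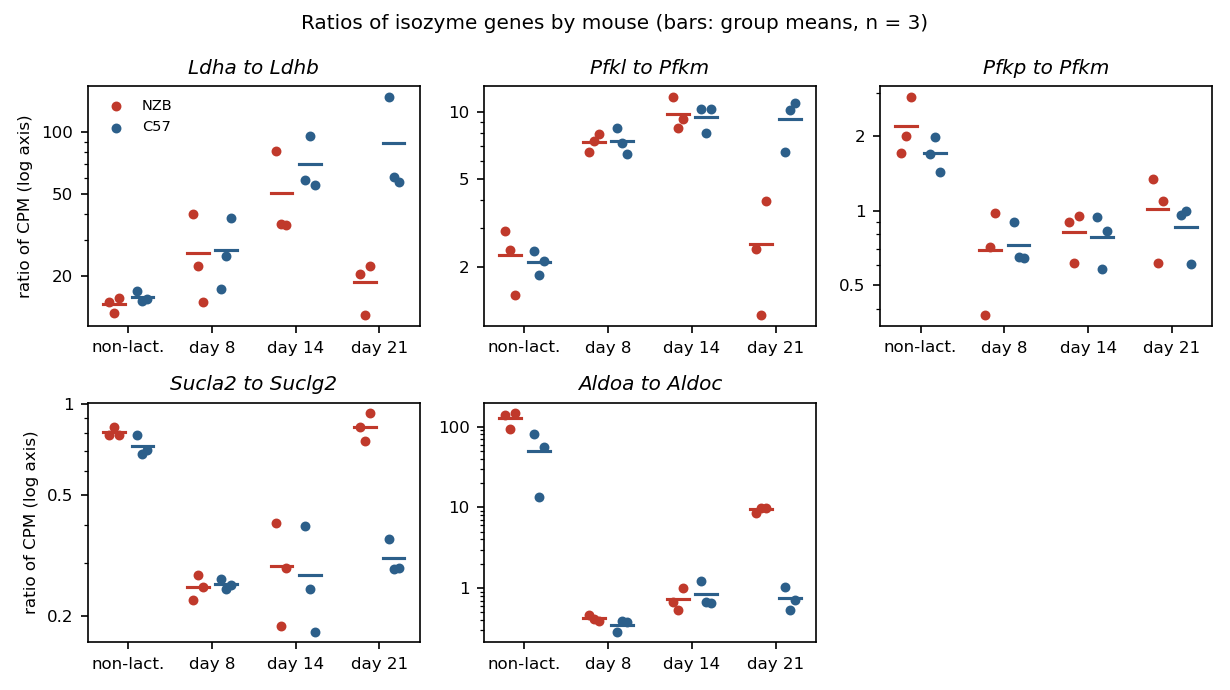
Ratio of the CPM of 2 isozyme genes in each mouse (dots, log axis) by stage, NZB in red left of C57 in blue, with bars at the group means (n = 3). On day 21 the NZB dots are apart from the C57 dots for Aldoa to Aldoc, Sucla2 to Suclg2, Pfkl to Pfkm and Ldha to Ldhb, and overlap them for Pfkp to Pfkm.

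Neighbouring genes of the same pathways were counted from lists. On day 8, 14.3% of all genes rose and 32.3% fell in NZB, and 12.5% rose and 30.9% fell in C57. The lists were not tested against these shares. Of 13 other glycolytic genes tested, 1 rose and 7 fell on day 8 in NZB and 1 rose and 5 fell in C57; Pfkfb3 and Pfkfb1, which make the activator of phosphofructokinase, fell by 4.18 (SE 0.53) and 3.69 (SE 0.40) in NZB and by 4.13 (SE 0.53) and 3.71 (SE 0.40) in C57. Of 12 genes of pyruvate and lactate handling, 3 rose and 3 fell on day 8 in NZB and 1 rose and 2 fell in C57, with Slc16a1, a lactate and pyruvate transporter, up by 1.93 (SE 0.37) and 2.08 (SE 0.37). Of 8 genes of citrate export and malic enzymes, 1 rose and 2 fell in NZB and 2 rose and 1 fell in C57 on day 8: Acly, which splits exported citrate, rose by 0.84 (SE 0.31) in NZB (adjusted p = 0.032, and 0.057 with a weight per group) and 1.51 (SE 0.31) in C57, and Slc25a1, the citrate carrier, rose by 1.41 (SE 0.33) in C57. Of 6 other citric acid cycle genes, 0 rose and 3 fell in NZB and 1 rose and 3 fell in C57, Sdha of succinate dehydrogenase by 1.02 (SE 0.20) and 0.76 (SE 0.20). Of 3 gluconeogenic genes 1 fell in NZB and 2 in C57, Pck1 (cytosolic PEP carboxykinase, abundant in fat tissue) by 3.93 (SE 0.65) and 3.79 (SE 0.65). Of 8 pentose phosphate genes, 1 rose and 2 fell in NZB and 0 rose and 3 fell in C57.

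On day 21 Pdk4, the kinase of the pyruvate dehydrogenase complex known to rise in fasting and fat use, stood at 378, 842 and 1128 CPM in NZB glands against 70.1, 48.5 and 104 CPM in C57 glands, which did not overlap. It was higher in NZB by 3.31 (SE 0.55) (adjusted p = 0.00016), and its change from day 8 exceeded that in C57 by 3.27 (SE 0.77) (adjusted p = 0.011). Acly was at 539, 375 and 454 CPM in NZB against 1409, 1874 and 1920 CPM in C57, a difference of -1.93 (SE 0.31) (adjusted p = 0.00014). Idh2, the mitochondrial NADP isocitrate dehydrogenase, had 50.6, 80.1 and 111 CPM in NZB against 20.5, 15.2 and 21.5 CPM in C57, a difference of 1.97 (SE 0.23) (adjusted p = 4.2e-06). Between the genotypes on day 21, 19.3% of all genes were higher and 5.50% lower in NZB, and the lists were not tested against these shares. Over the lists, 3 of 13 other glycolytic genes were higher and 2 lower in NZB, and 3 and 2 of 12 for pyruvate and lactate handling. The counts were 1 and 2 of 8 for citrate export and malic enzymes. They were 1 and 0 for each of the other citric acid cycle, gluconeogenic and pentose phosphate lists. Pfkfb3, Pck1 and H6pd were among the higher ones, with 2.76 (SE 0.53), 2.15 (SE 0.65) and 1.77 (SE 0.44), and Hk2, Gpt2 and Me1 among the lower ones, with -1.13 (SE 0.30), -1.40 (SE 0.32) and -1.20 (SE 0.31). Pck1 in NZB mouse 1, the mouse with the highest adipocyte sum, was 1135 CPM, against 192 and 187 CPM in the other two.

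**Figure D5:**
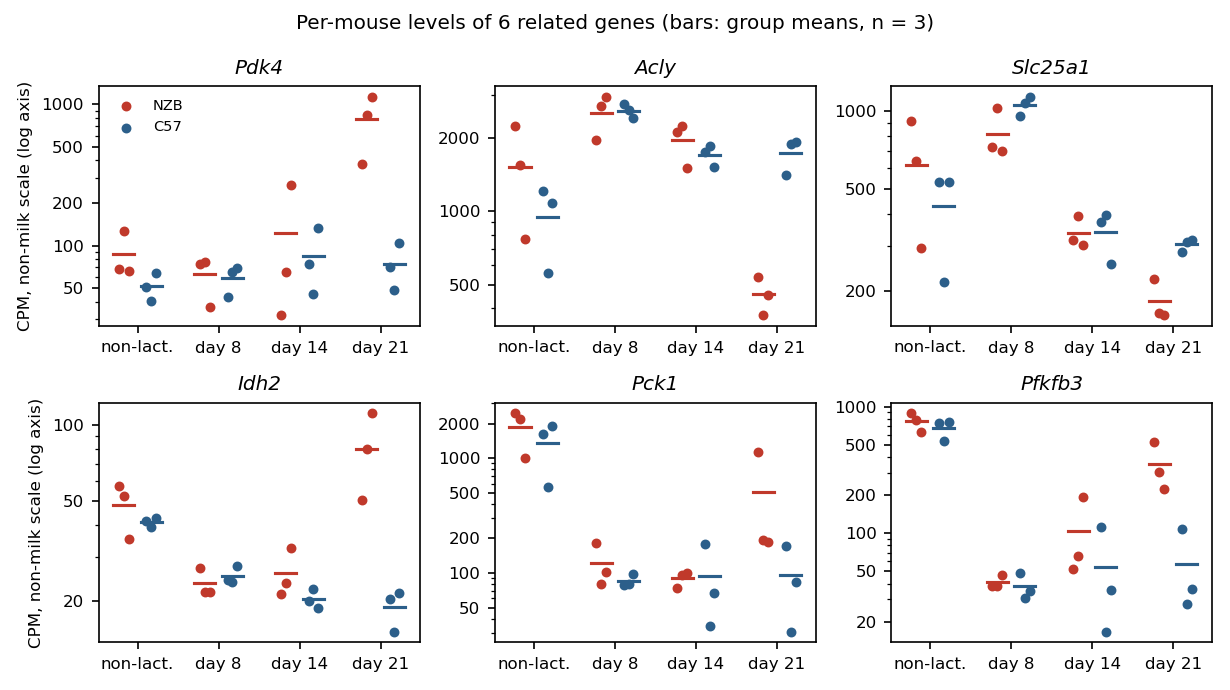
Level of 6 related genes in each mouse (dots, CPM on the non-milk scale, log axis) by stage, NZB in red left of C57 in blue, with bars at the group means (n = 3). On day 21 the NZB dots lie above the C57 dots for Pdk4, Idh2, Pck1 and Pfkfb3 and below them for Acly and Slc25a1.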

How the data were processed

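Gene-level values of 24 polyA RNA-seq samples were used, with builds GRCm38 and mm10 named in the submitters' processing notes; the aligner is not given in the sources used here. The deposited values are log10 of CPM + 1, in 2 read columns per sample; each column sums to 1000000 CPM once the log10 is undone, and whole reads were recovered for at least 99.99% of values in a column (tolerance 0.05). The authors' columns were averaged in CPM per mouse, 15 milk protein genes were removed, and the rest rescaled to a sum of 1000000. In 22 samples the 2 columns differed by no more than counting noise, so they count as 1 replicate. Intervals and tests cover the spread between mice.

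Log2(CPM + 1) was fitted with limma 3.58.1 (R 4.3.3; group means, moderated with a trend, 16 residual degrees of freedom) for 16884 genes above 1 CPM in at least 3 samples, with Benjamini-Hochberg adjustment and a threshold of 0.05 in each of 14 comparisons. Of the symbols, 27 that had turned into dates were left out of tests. The fits were tested on simulated data. Tables were handled in Python 3.11.15 with numpy 2.4.6 and pandas 2.3.3, and figures drawn with matplotlib 3.10.9. Near-identical copies (at least 95% identity over 300 bases) were found with blastn 2.17.0 among transcripts of GENCODE mouse release 21, and promoters came from RefSeq (GRCm38.p6). No column of the table was unused (0).

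Values are shown by mouse for up to 2 members per role with the largest called differences from non-lactating glands, and up to 2 likewise for NZB against C57 on day 21 or NZB day 21 against day 8; related genes are up to 3 per list and comparison with the smallest adjusted p. Further named members are described by range or call. The members, lists, milk protein genes and tests were chosen with earlier results of these data known. The same replicate numbers recur across groups; the labels do not say that they mark shared litters or days. Alternatives were other scalings, a shorter milk gene list, a weight per group, the compared groups alone, voom on recovered reads in place of a count test, a pseudocount of 0.25, no filter, 1 read column, a replicate block and leaving out mice.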

Additional observations from a re-analysis of the deposited data

Results flagged for a closer look

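For 9 members the change from day 8 to day 21 differed between NZB and C57 glands by the test of that difference in limma, adjusted over all genes. On the log2 scale of non-milk CPM + 1, the NZB less C57 difference in change was -2.28 for Aldoc, -2.04 for Pdhb, -1.62 for Pfkl, -1.49 for Pdk1, -1.37 for Mpc1, -1.26 for Mpc2, -1.19 for Cs, -0.96 for Suclg2 and 1.58 for Idh1. The 8 negative ones stand for genes that were lower in NZB than in C57 glands on day 21 and that had not passed the test between genotypes on day 8. On TMM scaling the calls of Mpc2, Cs and Idh1 were lost (adjusted p = 0.067, 0.075 and 0.066). Leaving out 1 mouse at a time, any of 7 mice could undo the call of Mpc2 and any of 6 that of Cs. Without C57 day 21 mouse 2, 5 of the lower calls were made. Milk protein genes took 24.5 ± 6.19% of reads in NZB glands and 70.3 ± 7.73% in C57 glands on day 21 (SD, n = 3 each), and the part of that difference, or of cell makeup, in these changes was not tested.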

How the results depend on the processing

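Lactation days named alone are set against non-lactating glands, and the genotype difference in the change is that from day 8 to day 21. Among 190 calls on members, 6650 alternative values kept direction and call in 6280 cases, lost the call in 301 and turned in 69. Most alternatives left out 1 mouse, often from a group outside the comparison, so the pooled tally says little about other scales. Of the 190 calls, 148 were kept on TMM scaling, 144 by voom and 106 with milk genes kept. The turned ones all came from keeping the milk genes, which take most reads in lactation. With milk genes kept the counts became 1 higher and 36 lower in C57 day 8, 1 higher and 34 lower in C57 day 14, 1 higher and 33 lower in C57 day 21, 1 higher and 38 lower in NZB day 8, 1 higher and 37 lower in NZB day 14, 1 higher and 28 lower in NZB day 21, 31 higher and 1 lower in NZB against C57 day 21, 29 higher and 1 lower in NZB day 21 against day 8 and 27 higher and 0 lower in the genotype difference in the change. TMM scaling gave 7 lower in C57 day 8, 8 lower in C57 day 14, 9 lower in C57 day 21, 6 lower in NZB day 21, 2 higher in NZB against C57 day 21, 4 higher in NZB day 21 against day 8 and 0 higher in the genotype difference in the change. Limma voom on the recovered reads gave 7 lower in C57 day 8, 8 lower in C57 day 14, 8 lower in C57 day 21, 8 lower in NZB day 14, 1 higher in NZB against C57 day 21, 0 lower in C57 day 21 against day 8, 4 higher in NZB day 21 against day 8 and 0 higher and 5 lower in the genotype difference in the change. Removing 8 milk genes in place of 15 gave 7 higher in NZB day 14, 11 higher in NZB day 21 against day 8 and 3 higher in the genotype difference in the change. Fitting the compared groups alone gave 7 higher in NZB day 14, 5 lower in NZB day 21, 0 higher and 0 lower in NZB against C57 non-lactating, 5 higher in NZB against C57 day 21, 1 higher in C57 day 21 against day 8 and 3 higher in the genotype difference in the change. A weight per group gave 1 higher in NZB day 21, 0 lower in NZB against C57 non-lactating, 1 higher in C57 day 21 against day 8 and 2 higher in the genotype difference in the change. No filter on low values gave 1 higher in C57 day 21 against day 8. Leaving out NZB non-lactating mice 2 and 3 gave 7 higher in NZB day 8, 3 higher in NZB day 14, 1 higher in NZB day 21, 0 higher and 0 lower in NZB against C57 non-lactating, 1 higher in C57 day 21 against day 8 and 2 higher in the genotype difference in the change. Counts left out here were within 1.5 times, and the cause of these changes was not tested beyond the mice or genes left out. Shares of all genes are not set beside the counts here, so the counts describe the members alone. With milk genes kept, the turned log2 differences were as follows. For C57 day 8, Cs had -0.81, Dlat -0.20, Mpc1 -0.44, Mpc2 -0.55, Pdha1 -1.32, Pdhb -0.27, Pdhx -0.72, Pdk1 -0.64, Pfkl -0.56, Pgk1 -1.19 and Suclg2 -1.23. For C57 day 14, Cs had -0.99, Mpc1 -0.53, Mpc2 -0.59, Pdhb -0.12, Pdk1 -0.08, Pgam1 -0.83, Pgk1 -0.60, Pkm -0.49 and Suclg2 -1.06. For C57 day 21, Cs had -1.03, Mpc1 -0.46, Mpc2 -0.60, Pdhb -0.10, Pdhx -1.10, Pdk1 -0.10, Pgam1 -0.98, Pgk1 -0.59, Pkm -0.48 and Suclg2 -1.18. For NZB day 8, Cs had -0.84, Dlat -0.73, Mdh1 -0.98, Mpc1 -0.54, Mpc2 -0.80, Pdhb -0.43, Pdhx -0.93, Pdk1 -1.10, Pfkl -0.59 and Suclg2 -1.05. For NZB day 14, Mdh1 had -1.06, Mpc1 -1.10, Mpc2 -0.92, Pdhb -0.73, Pdk1 -0.78, Pfkl -0.10, Pgam1 -1.24, Pgk1 -0.86, Pkm -0.71 and Suclg2 -1.18. For NZB against C57 day 21, Cs had 0.31, Dlat 0.55, Mdh1 0.44, Mpc1 0.26, Mpc2 0.11, Pdk1 0.12, Pgam1 0.68 and Suclg2 0.56. For NZB day 21 against day 8, Mdh1 had 0.31, Mpc2 0.03, Pcx 0.43, Pdha1 0.82, Pdhx 0.24, Pdk1 0.40, Pfkl 0.36 and Suclg2 0.41. For the genotype difference in the change, Cs had 0.16, Mpc2 0.08 and Suclg2 0.36. Leaving out each mouse in turn gave 10 to 13 higher and 12 to 13 lower in C57 day 8, 10 to 13 higher and 12 to 19 lower in C57 day 14, 9 to 14 higher and 12 to 17 lower in C57 day 21, 11 to 12 higher and 13 to 17 lower in NZB day 8 and 7 to 13 higher and 12 to 16 lower in NZB day 14. It also gave 1 to 3 higher and 8 to 23 lower in NZB day 21, 1 to 2 higher and 0 to 2 lower in NZB against C57 non-lactating, 4 to 10 higher and 10 to 13 lower in NZB against C57 day 21, 0 to 1 higher and 0 to 1 lower in C57 day 21 against day 8, 5 to 9 higher and 11 to 14 lower in NZB day 21 against day 8 and 1 to 2 higher and 5 to 9 lower in the genotype difference in the change, and 0 in the other comparisons. Without NZB non-lactating mouse 3 there were 7 higher on NZB day 14 and 23 lower on NZB day 21, and without C57 day 21 mouse 2 there were 5 lower in the genotype difference in the change. Of 84 same-number pairs of deviations from group means, 9 had r over 0.1 (range -0.40 to 0.47). The highest, 0.47 and 0.40, were those of numbers 1 and 2 between C57 day 14 and C57 day 21. No pairs of unlike number were set beside them, so these values cannot tell whether the numbers pair mice. With the number as a replicate block, 7 members were higher and 13 lower in NZB against C57 on day 21, 9 and 13 in NZB day 21 against day 8, 1 and 8 in the genotype difference in the change, and 11 lower on NZB day 21; Gpi1 on NZB day 21 and Pfkp between genotypes on day 21 lost their calls. A pseudocount of 0.25 and the first read column alone left every count within 1.5 times. The planned edgeR count test was not run because the deposited unit is a log; voom took its place and was chosen after seeing the data. Depth limits the scarce members, Pdk3, Ldhb and Pdp1, which fell to a few CPM. With 3 mice a group, and on simulated data, the pooled spread made too many false calls in a comparison with the uneven NZB non-lactating group, and the weighted fit fewer.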
